A study of Homo sapiens with 20 samples.

Results

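Small cell lung cancer (SCLC) is divided into molecular subtypes by the regulator that dominates each tumor, and the tuft cell-like subtype (SCLC-P) is defined by POU2F3. Binding regions were examined here at 9 genes that mark or control the other forms of the disease: NEUROD1, INSM1, ATOH1, ONECUT2, NKX2-1, FOXA2, DLL3, YAP1 and REST. A region was counted for a gene when it overlapped the GRCh38 gene body or the 50 kb on either side of it. By this rule the 20 peak lists held 345 regions at the 9 genes, of 562813 regions in all.

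The lists are ChIP-seq peak calls from 10 pairs of libraries, each pair treated with DMSO or with 1 µM of the PROTAC AU-15330. This compound removes both catalytic subunits of the mSWI/SNF chromatin remodelers, SMARCA2 and SMARCA4, and in the study PBRM1 as well. SCLC-P lines gave 6 pairs: the POU2F3 antibody, HA-POU2F3 and HA-POU2AF2 in NCI-H526, and the POU2F3 antibody, HA-POU2F3 and an HA antibody with a tagged protein that the labels do not name in NCI-H1048. Multiple myeloma lines gave the other 4, with POU2AF1 and IRF4 antibodies in MM1.S and in NCI-H929, and served here as cells of another lineage. AU-15330 was given for 6 h in both HA experiments of NCI-H1048, and, as the study describes them, also for 6 h with POU2F3 in NCI-H1048 and in the myeloma lines. For NCI-H526 the labels' span of 4 to 6 h is the closest value. The study's legend for NCI-H1048 shows HA-POU2F3 and HA-POU2AF3, another coactivator of POU2F3, but the labels do not tie HA-POU2AF3 to the remaining HA pair. That pair is called below the HA protein of unnamed tag, meaning that the protein carrying the HA tag is not named. By the study's methods the HA-tagged proteins were expressed from lentiviral dTAG constructs in cells carrying Cas9, with the endogenous gene knocked out, so HA and POU2F3 antibody libraries differ in cells as well as in antibody. Each condition is 1 library, so there is no test of any difference between lists, and the intervals below are exact binomial 95% intervals that cover counting error only. The lists held 1327 to 89902 regions, and the estimated depth ran from 17.3 to 53.6 M tags (M, 1e6) in the 18 lists that allow an estimate. Expression of the 9 genes was not measured in these lists.

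As background, NEUROD1 and ATOH1 are proneural basic helix-loop-helix factors, and INSM1 is a zinc finger factor of neuroendocrine differentiation. ONECUT2 is a homeodomain factor of endodermal and neural cells, NKX2-1 is the lung and thyroid lineage factor, and FOXA2 is a pioneer factor of endoderm. DLL3 is an inhibitory Notch ligand expressed on neuroendocrine SCLC cells, YAP1 is the coactivator held back by the Hippo kinases, and REST is a repressor that silences neuronal genes in non-neuronal cells. POU2F3 binds the octamer, whose core is TTTGCAT, and POU2AF2 binds to POU2F3 on the octamer as its coactivator.

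The strongest regions at these genes fell into those with an octamer core within 100 bases of the summit and those without one. The sequences below, read from the GRCh38 plus strand within 100 bases of the summit, show the strongest or most widely shared regions of each kind. Capitals mark the octamer core, which reads ATGCAAA where it lies on the minus strand.
ONECUT2 upstream region, chr18:57404456-57404556: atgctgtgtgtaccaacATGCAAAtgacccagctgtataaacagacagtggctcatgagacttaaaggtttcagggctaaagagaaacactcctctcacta
ONECUT2 promoter, chr18:57434702-57434802: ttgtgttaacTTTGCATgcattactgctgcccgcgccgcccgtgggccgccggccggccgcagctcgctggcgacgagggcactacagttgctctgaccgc
CERKL promoter beside NEUROD1, chr2:181657555-181657655: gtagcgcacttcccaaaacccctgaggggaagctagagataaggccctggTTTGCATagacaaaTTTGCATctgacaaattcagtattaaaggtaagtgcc
RALGAPA2 intron beside INSM1, chr20:20410818-20410918: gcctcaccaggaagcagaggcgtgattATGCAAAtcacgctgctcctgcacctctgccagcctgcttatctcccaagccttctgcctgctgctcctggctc
REST upstream region, chr4:56874375-56874475: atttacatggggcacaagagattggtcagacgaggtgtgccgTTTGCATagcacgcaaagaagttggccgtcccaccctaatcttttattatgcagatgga
NKX2-1 upstream region, chr14:36556154-36556254: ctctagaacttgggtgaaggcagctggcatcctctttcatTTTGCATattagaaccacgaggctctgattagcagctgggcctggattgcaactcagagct
YAP1 downstream region, chr11:102280646-102280746: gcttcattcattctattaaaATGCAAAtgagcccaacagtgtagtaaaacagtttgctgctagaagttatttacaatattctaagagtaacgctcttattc
DLL3 promoter, chr19:39497996-39498096: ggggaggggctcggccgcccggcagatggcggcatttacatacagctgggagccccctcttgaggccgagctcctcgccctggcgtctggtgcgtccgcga
FOXA2 promoter, chr20:22584824-22584924: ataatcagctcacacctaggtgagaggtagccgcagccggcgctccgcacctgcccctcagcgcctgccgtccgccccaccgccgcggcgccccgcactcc
INSM1 upstream region, chr20:20362960-20363060: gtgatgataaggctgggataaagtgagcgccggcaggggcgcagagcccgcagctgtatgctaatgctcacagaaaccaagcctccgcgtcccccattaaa
NEUROD1 intron, chr2:181674605-181674705: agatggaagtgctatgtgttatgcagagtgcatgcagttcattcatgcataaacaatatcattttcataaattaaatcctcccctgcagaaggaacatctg
YAP1 intron, chr11:102157188-102157288: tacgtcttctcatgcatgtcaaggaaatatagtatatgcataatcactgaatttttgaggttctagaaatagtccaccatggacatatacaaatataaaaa

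The first 7 of these regions carried a core and the other 5 did not. The CERKL promoter beside NEUROD1 carried 2 cores in the stretch shown. The stretches shown are shorter than the windows of the motif counts below, which take 100 bases on each side of the summit. A stretch was shifted off the summit where this was needed to hold the core, as at the ONECUT2 promoter.

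With DMSO, POU2F3 had regions in the windows of all 9 genes in NCI-H526 cells, and HA-POU2F3 did too. This was close to what any gene showed: 94.2% of the 20033 protein-coding genes had a POU2F3 region in the same window, and 91% had an HA-POU2F3 region. HA-POU2AF2 had regions at 7 of 9 genes, against 83.7% of all genes, and was not called at ATOH1 or NKX2-1. The POU2F3 antibody in NCI-H1048 cells marked 8 of 9 genes, against 85.4%, with NKX2-1 the exception. HA-POU2F3 gave regions in this line at 4 of 9 genes, INSM1, ATOH1, YAP1 and REST, against 63.8%, and the HA protein of unnamed tag at 6 of 9, against 63%. The count of genes thus stood near or below the background in every SCLC-P list with DMSO except the NCI-H526 POU2F3 and HA-POU2F3 lists, where it was at its ceiling.

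The myeloma lists with DMSO held regions at 7 of 9 genes for POU2AF1 in MM1.S, against 89.3% of all genes, and at 5 of 9 in NCI-H929, against 87.2%. IRF4 had regions at 8 of 9 genes in both lines, against 85.4% in MM1.S and 94.6% in NCI-H929. FOXA2 had no region in any of the 8 myeloma lists, and it was the single gene of the 9 of which that was true.

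**Figure D1:**
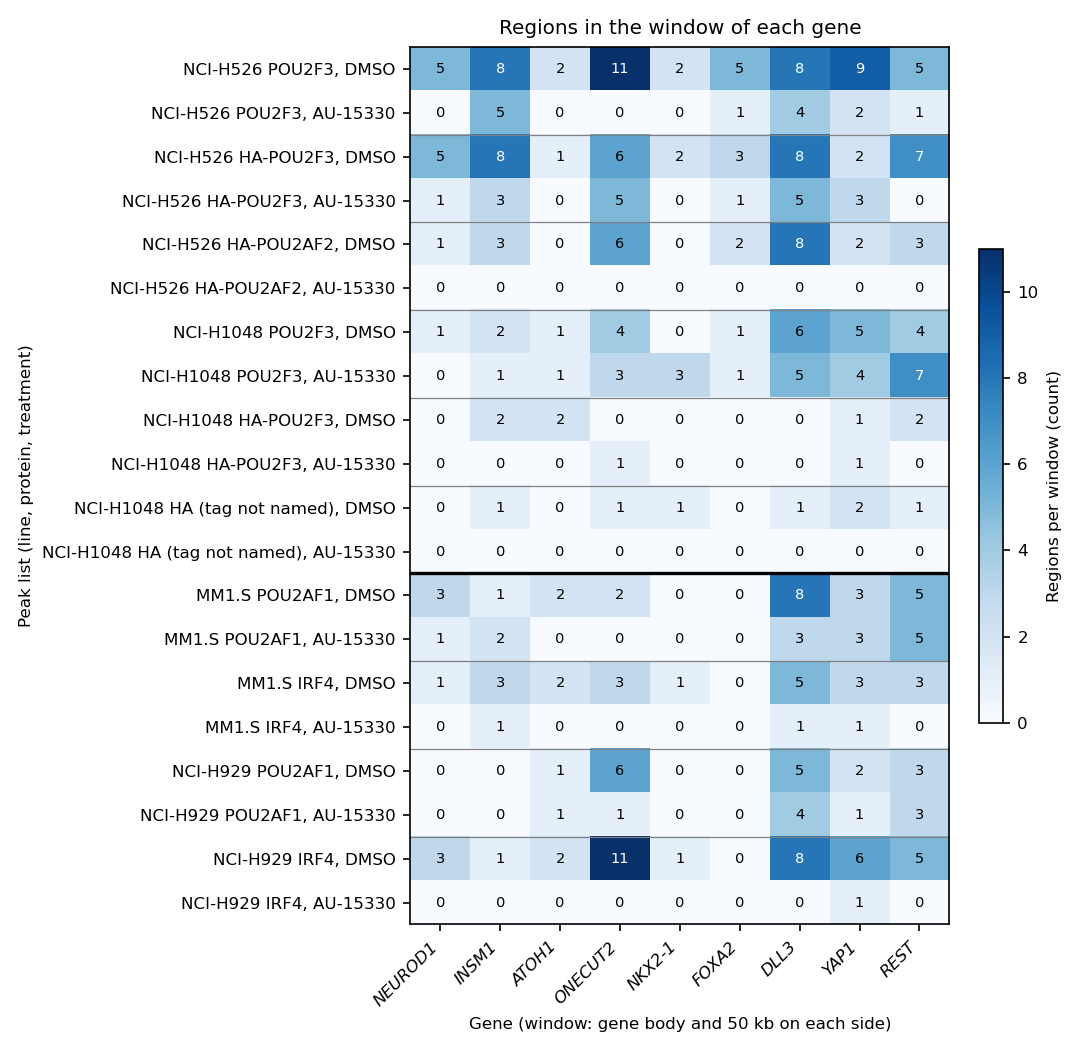
Number of regions in the window of each of the 9 genes (columns) in each of the 20 peak lists (rows); the thick line divides SCLC-P from myeloma lists. POU2F3 in NCI-H526 had 2 to 11 regions at every gene with DMSO, and the HA-POU2AF2 list with AU-15330 had none at any of them.

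Counted as regions per 100 kb of window, the 9 genes had a median of 4.44 for POU2F3 in NCI-H526 and 3.85 for HA-POU2F3, whereas the median over all protein-coding genes was 3.59 and 2.37. In NCI-H1048 cells the medians were 1.94 against 1.56 for POU2F3 and 0 against 0.734 for HA-POU2F3. The 9 factors of the tuft cell list, among them POU2F3, ASCL2, GFI1B and SOX9, stood higher in each of these lists, with medians of 7.12, 5.72, 3.39 and 2.93 in the same order. All 9 tuft cell factors had an HA-POU2F3 region in NCI-H1048 cells. In the 4 myeloma lists with DMSO the 9 subtype genes had a median of 0.897 to 2.67 regions per 100 kb, against 1.82 to 3.31 for all genes. Their median was the lower in each of these lists except IRF4 in MM1.S, at 1.89 against 1.84.

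Other genes of the same programs gave a similar picture. Of 30 neuroendocrine genes, such as CHGA, SYP and NCAM1, POU2F3 had a region at 28 in NCI-H526, where 94.2% of all genes had one, and at 27 in NCI-H1048, against 85.4%, and their median density in NCI-H526 was 4.60 regions per 100 kb. POU2F3 in NCI-H526 had regions at 16 of 16 Hippo pathway genes, 12 of 12 Notch pathway genes, 8 of 8 corepressors and partners of REST, and 9 of 9 further endodermal factors, at median densities of 4.40, 5.37, 4.01 and 3.78. Counts this high were near that background of 94.2%. Each of these medians in NCI-H526 was above that of all genes and below that of the tuft cell factors. In NCI-H1048 the REST corepressors (1.34) and endodermal factors (1.13) stood below the median of all genes (1.56). The 6 tuft cell markers all had POU2F3 regions in both lines, and so did all 5 plasma cell markers. With backgrounds of 94.2% and 85.4%, having a region does not check the label of the lines. The median density at tuft cell markers was 6.98 in NCI-H526 and 3.29 in NCI-H1048. At plasma cell markers it was 4.72 and 1.94.

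**Figure D2:**
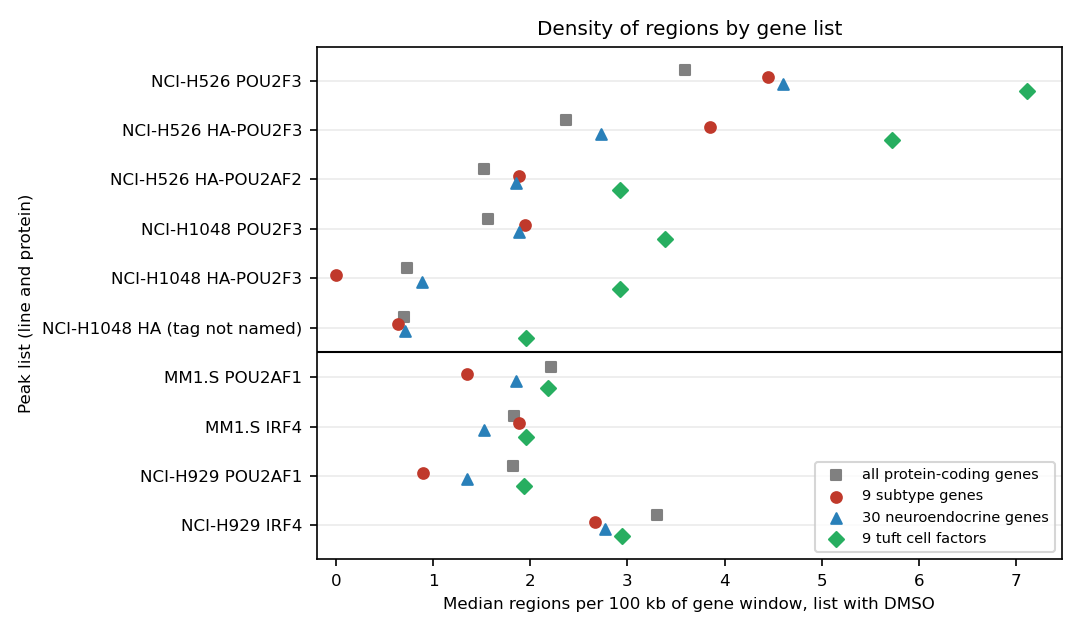
Median number of regions per 100 kb of gene window in each list with DMSO, for all protein-coding genes, the 9 subtype genes, 30 neuroendocrine genes and 9 tuft cell factors. The tuft cell factors lie to the right of the other groups in the 6 SCLC-P lists, and the 9 subtype genes stay below 4.5 in every list.

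The genes differed among themselves. In NCI-H526 cells INSM1, DLL3 and ONECUT2 had POU2F3 regions at a density above that of 93.3%, 90.9% and 89.7% of protein-coding genes, ties counted at the middle, and NKX2-1 and ATOH1 stood at 23.5% and 24.7%. With HA-POU2F3 the order began again with INSM1 (98.5%) and DLL3 (97.9%), followed by NEUROD1 (84.1%), REST (83.8%) and ONECUT2 (77.8%), and YAP1 came last at 17.8%. HA-POU2AF2 put DLL3 at 99.4% and ONECUT2 at 90.9%. In NCI-H1048 cells DLL3 led for POU2F3 at 98.0%, whereas INSM1 stood at 63.9%. With HA-POU2F3 in that line ATOH1 (90.5%) and INSM1 (90.1%) were highest, and DLL3 had no region. DLL3 was dense in the myeloma lists with DMSO as well, at 86.8% to 95.5%, and its window holds 5 other protein-coding genes, more than that of any other of the 9.

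POU2F3 in NCI-H526 had a region within 1 kb of a TSS of 7 of the 9 genes, all but NKX2-1 and REST. Of all protein-coding genes 56.3% had such a region in this list. The corresponding numbers were 5 genes against 50% for HA-POU2F3 and 4 genes against 36.9% for HA-POU2AF2. In NCI-H1048 they were 5 genes against 39.1% for POU2F3, 0 against 16.1% for HA-POU2F3, and 2, YAP1 and NKX2-1, against 17% for the HA protein of unnamed tag. INSM1, FOXA2 and ONECUT2 had a promoter region in each of the 3 NCI-H526 lists with DMSO and in the NCI-H1048 POU2F3 list. Over all 9 genes, the fold enrichment of promoter regions in the NCI-H526 lists with DMSO ran from 2.07 at ONECUT2 to 12.2 at DLL3. Fold is the summit pileup over the local background, with a constant added to both, as the authors' caller gave it.

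In the lists of the POU2F3 protein with the most regions, those at the 9 genes lay near the middle of the list by strength. Ranked by fold within the list, their median stood at 50.4% of the list for POU2F3 in NCI-H526, 51.1% for HA-POU2F3 and 54.7% for POU2F3 in NCI-H1048, where 50% would be the middle. Their median fold was 4.34, 4.61 and 4.76, against 4.37, 4.67 and 4.91 over the whole lists. The median rank was further from the top for the HA protein of unnamed tag in NCI-H1048 (70.1%), for POU2AF1 in MM1.S (64.3%) and for IRF4 in NCI-H929 (74.0%), with median folds of 3.31, 4.15 and 4.03 against 3.63, 4.62 and 4.91.

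**Figure D3:**
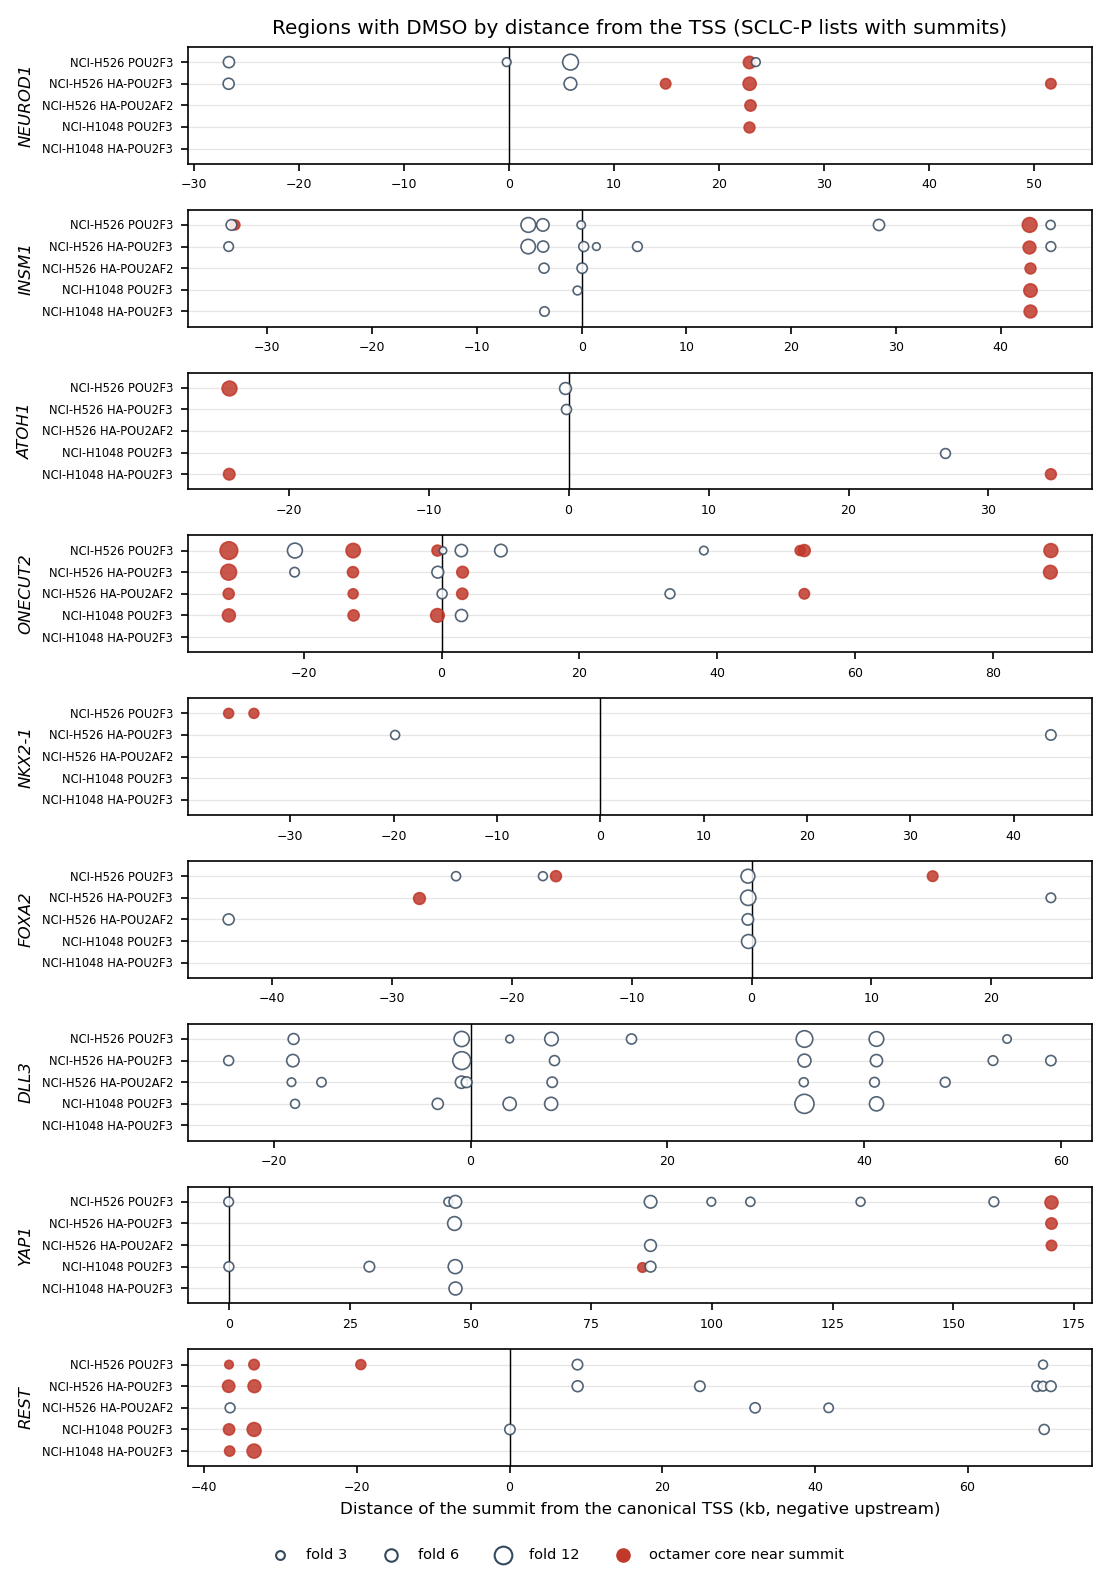
Each circle is a region of an SCLC-P list with DMSO, placed by the distance of its summit from the canonical TSS in kb, with 1 panel per gene and 1 line per list. Circle area follows the fold enrichment, and filled circles have an octamer core within 100 bases of the summit: none of the DLL3 regions is filled.

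Among the proneural and neuroendocrine factors, NEUROD1 (chr2:181668295-181680827, minus strand) lies within the annotated span of CERKL, a ceramide kinase-like gene. Its strongest POU2F3 region was in the body of NEUROD1, with the summit in an intron of both genes at 5.86 kb from the TSS. There POU2F3 in NCI-H526 reached a fold of 9.55 and HA-POU2F3 a fold of 6.22, and no other protein or line had a region. A second region at the CERKL promoter, 22.9 kb from the NEUROD1 TSS, was seen with POU2F3 (fold 5.78), HA-POU2F3 (6.60) and HA-POU2AF2 (4.81) in NCI-H526 and with POU2F3 in NCI-H1048 (4.44). This is the region with 2 octamer cores. The NEUROD1 promoter itself was called in a single list, POU2F3 in NCI-H526, at a fold of 2.89, which ranked at 94.1% of that list from the strongest.

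INSM1 (chr20:20368104-20370949, plus strand) had 8 regions with POU2F3 and 8 with HA-POU2F3 in NCI-H526. The strongest lay upstream, at -5.09 kb for POU2F3 and -5.11 kb for HA-POU2F3, with folds of 8.32 and 7.98. Another upstream region, at -3.71 and -3.68 kb, had folds of 5.94 and 4.83. The region nearest to -5.1 kb was called in NCI-H526 POU2F3 and HA-POU2F3 lists and in no other list, whereas the one at -3.7 kb was also called with HA-POU2AF2 (3.84) and with HA-POU2F3 in NCI-H1048 (3.42). At the INSM1 TSS the folds were 2.67 for POU2F3, 3.76 for HA-POU2F3 and 4.09 for HA-POU2AF2 in NCI-H526. The background around INSM1 was high in NCI-H526: at the regions from -5.1 kb to the TSS the local background was 4.04 to 4.55 times that of the genome in the POU2F3 list, and from -5.1 to 5.3 kb it was 4.43 to 6.10 times in the HA-POU2F3 list. The local background lowers the fold, so the same regions had high pileups, at 35.5 and 38.6 times the genome background at -5.1 kb. The part of this background in the calls was not tested.

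The region most widely shared at INSM1 lay 42.7 kb downstream of its TSS, in an intron of RALGAPA2, a subunit of a Ral GTPase activator. It held an octamer core and was called with DMSO in all 6 SCLC-P lists: folds were 8.28 for POU2F3, 6.16 for HA-POU2F3 and 4.49 for HA-POU2AF2 in NCI-H526, and 6.78 for POU2F3, 6.26 for HA-POU2F3 and 3.57 for the HA protein of unnamed tag in NCI-H1048. No myeloma list had a region there.

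ATOH1 (chr4:93828753-93830964, plus strand) had 2 POU2F3 regions in NCI-H526. The weaker of these, at the promoter, had folds of 5.33 with POU2F3 and 3.81 with HA-POU2F3 in NCI-H526 and no core. All 4 myeloma lists with DMSO had a region at this promoter too (3.55 to 5.35), though not all overlapped those of NCI-H526. In NCI-H1048 POU2F3 had no promoter region with DMSO, and its single region there lay at 26.9 kb with a fold of 3.68. HA-POU2F3 in NCI-H1048 had 2 regions, both with a core, of which the weaker lay at 34.5 kb with a fold of 4.46.

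ONECUT2 (chr18:57435374-57491298, plus strand) had the most POU2F3 regions of the 9 genes in NCI-H526, 11 in all. The strongest, at -30.9 kb, had folds of 11.9 for POU2F3 and 9.57 for HA-POU2F3, which placed it in the top 2.11% and 4.75% of these lists. It was called as well for HA-POU2AF2 (4.61) and in NCI-H1048 for POU2F3 (6.40) and the HA protein of unnamed tag (3.16), and held a core. POU2AF1 in NCI-H929 overlapped it at a fold of 3.88. A further region with a core at -12.8 kb was shared by both lines, at folds of 7.87 for POU2F3 in NCI-H526 and 4.71 in NCI-H1048. At the promoter POU2F3 had a fold of 4.54 in NCI-H526 and 7.12 in NCI-H1048 and a core within 100 bases of the summit. Inside the gene, overlapping regions about 3 kb from the TSS were called for POU2F3 in NCI-H526 (5.77) and in NCI-H1048 (5.58), for HA-POU2F3 (5.15) and HA-POU2AF2 (4.79) in NCI-H526, and in NCI-H929 for POU2AF1 (6.44) and IRF4 (4.93).

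Of the lung and endoderm factors, NKX2-1 (chr14:36516392-36521149, minus strand) had 2 POU2F3 and 2 HA-POU2F3 regions in NCI-H526, none of them the same, at folds of 3.11 to 4.13. The nearest of these lay at -19.9 kb from the TSS, and both POU2F3 regions, at -33.5 and -36.0 kb, held a core. The strongest HA-POU2F3 region lay at 43.6 kb, in an intron of SFTA3. In NCI-H1048 POU2F3 had no region at NKX2-1 with DMSO, and the HA protein of unnamed tag had 1 within the promoter, at a fold of 3.31.

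FOXA2 (chr20:22580998-22585455, minus strand) had its strongest region at the promoter in all 4 SCLC-P lists that called it. Its summit lay between -0.277 and -0.307 kb from the canonical TSS, in an intron of FOXA2. Folds were 7.29 for POU2F3, 8.97 for HA-POU2F3 and 5.00 for HA-POU2AF2 in NCI-H526 and 7.41 for POU2F3 in NCI-H1048. It held no octamer core. The remaining FOXA2 regions with DMSO were each called in 1 list, all in NCI-H526, at folds up to 5.26.

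DLL3 (chr19:39498895-39508481, plus strand) had a strong region just upstream of the TSS in NCI-H526, the strongest of its window for HA-POU2F3 and HA-POU2AF2. The summit lay at -0.901 kb for HA-POU2F3, with a fold of 12.2 that put it in the top 1.63% of the list, at -0.908 kb for POU2F3, with a fold of 8.84, and at -0.926 kb for HA-POU2AF2, with a fold of 5.78. HA-POU2AF2 had a second region at -0.407 kb with a fold of 4.37. This promoter was called in no NCI-H1048 list and in no myeloma list. POU2F3 in NCI-H1048 had instead a region at -3.34 kb (4.72) and regions in the DLL3 body, at 3.97 kb (6.71) and 8.19 kb (6.58). The 8.2 kb region was shared with POU2F3 (7.03) and HA-POU2AF2 (4.12) in NCI-H526 and with IRF4 in NCI-H929 (4.03). An HA-POU2F3 region of NCI-H526 at 8.52 kb (3.86) overlapped the POU2F3 and HA-POU2AF2 regions of that line but not the NCI-H1048 region. That at 4 kb was shared with POU2F3 in NCI-H526 (2.31), the HA protein of unnamed tag (3.58) and POU2AF1 and IRF4 in both myeloma lines (4.64 to 6.99).

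Several DLL3 window regions belonged to promoters of its neighbours. The promoter of EID2B, 33.9 kb from the DLL3 TSS, gave the strongest region of the window for POU2F3 in both lines, at a fold of 10.6 in NCI-H526 and 14.0 in NCI-H1048. The EID2 promoter gave 8.23 and 7.65. The promoter of TIMM50, a mitochondrial import gene, gave 4.54 and 3.07 for POU2F3 but 13.4 for POU2AF1 in MM1.S and 9.80 in NCI-H929. No region of the DLL3 window held an octamer core in any SCLC-P list with DMSO.

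YAP1 (chr11:102110447-102233424, plus strand) had 9 POU2F3 regions in NCI-H526 and 5 in NCI-H1048. A region 46.8 kb into the gene, in an intron, was shared by both lines: folds were 6.11 for POU2F3 and 7.27 for HA-POU2F3 in NCI-H526, and 7.56 for POU2F3 and 6.46 for HA-POU2F3 in NCI-H1048. A second intronic region, at 87.3 kb, had folds of 6.05 for POU2F3 and 5.29 for HA-POU2AF2 in NCI-H526 and 4.43 for POU2F3 in NCI-H1048. Neither held a core. The strongest POU2F3 region of the window in NCI-H526 did, 170.2 kb downstream of the TSS (6.50). The YAP1 promoter was weaker in SCLC-P than in myeloma lists with DMSO: the folds were 3.54 for POU2F3 in NCI-H526, 3.67 in NCI-H1048 and 3.09 for the HA protein of unnamed tag, whose strongest region lay in an intron at 40.5 kb (3.57), against 4.32 to 6.97 for POU2AF1 and IRF4 in the myeloma lines. These folds come from libraries of different depth and antibody.

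REST (chr4:56907876-56966808, plus strand) had 2 upstream regions with a core that were shared by both lines. At about -33.5 kb the folds were 4.18 for POU2F3 and 6.25 for HA-POU2F3 in NCI-H526, and 7.28 for POU2F3 and 7.48 for HA-POU2F3 in NCI-H1048. At about -36.8 kb they were 2.78 for POU2F3, 5.71 for HA-POU2F3 and 3.68 for HA-POU2AF2 in NCI-H526, and 4.80 for POU2F3 and 3.92 for HA-POU2F3 in NCI-H1048. No myeloma list had either region. The strongest HA-POU2AF2 region of the window lay in a REST intron at 32.2 kb (4.01). The reverse held at the REST promoter, which was called in all 4 myeloma lists with DMSO and with POU2F3 in NCI-H1048 (4.10) but in no NCI-H526 list. The far end of the window reached the shared promoter of NOA1 and POLR2B, where both SCLC-P lines and both myeloma lines had regions, and POLR2B held the single region of the HA protein of unnamed tag (2.92).

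The octamer core was less frequent at the 9 genes than over the whole POU2F3 list in NCI-H526. It lay within 100 bases of the summit, on either strand, in 18 of 55 regions, or 32.7% (interval 20.7 to 46.7%), against 46.9% of all regions. For HA-POU2F3 it was in 12 of 42 regions, 28.6% (15.7 to 44.6%), against 35.6%, and for HA-POU2AF2 in 7 of 25, 28.0% (12.1 to 49.4%), against 46.1%. In NCI-H1048 it was in 8 of 24 POU2F3 regions, 33.3% (15.6 to 55.3%), against 44.4%, and in 5 of 7 HA-POU2F3 regions, 71.4% (29.0 to 96.3%), against 52.4%. The whole-list share lay inside the interval in each list except POU2F3 in NCI-H526, where it lay just above it.

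Regions at promoters made up 15 of the 55 POU2F3 regions in NCI-H526, or 27.3%, against 14.2% of the whole list. Every window was set on a gene and so holds a TSS, whereas the whole list also covers stretches far from genes. The promoter share in windows of other genes is not given here, so the 2 shares are not like for like. Promoter regions seldom held the core, at 2 of 15 here and at 11.2% over the list. Away from promoters, 16 of 40 regions had it, against 52.8%. The Sp/KLF pattern GGGCGGG was in 5 of the 55 regions, against 6.60% of the list. In the myeloma lists with DMSO the core was in 1 of 24 and 2 of 17 POU2AF1 regions and in 1 of 21 and 1 of 37 IRF4 regions, against 7.29%, 7.99%, 4.59% and 5.18% of the whole lists. RefSeq promoter sequences (GRCh38.p14) were matched for 6 of the 9 genes, and none held the core, which 4.46% of 35116 such promoters hold. These sequences are shorter than the promoters defined here, within 1 kb of a TSS. That of ONECUT2, chr18:57435124-57435423, leaves out the core of the ONECUT2 promoter region shown above.

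When overlapping regions of all lists were merged, the 9 windows held 135 sites. Of these, 84 were called in at least 1 SCLC-P list with DMSO, 54 in at least 1 myeloma list with DMSO and 18 in both kinds. Of the 66 sites called with DMSO in an SCLC-P list and in no myeloma list, 22 held the core and 9 were at promoters. At least 3 SCLC-P lists with DMSO shared 22 sites, which lay at 7 of the 9 genes, whereas 49 sites were called in a single one of those lists.

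Regions were shared between proteins about as often at these genes as elsewhere. Of the 55 POU2F3 regions in NCI-H526, 28 overlapped an HA-POU2F3 region, 50.9% (37.1 to 64.6%) against 40.6% of the whole list, and 18 overlapped an HA-POU2AF2 region, 32.7% (20.7 to 46.7%) against 28.6%. In the other direction, 28 of 42 HA-POU2F3 regions overlapped POU2F3, 66.7% against 64.6%, and 19 of 25 HA-POU2AF2 regions did, 76.0% against 75.4%. Of the 55 regions, 14 overlapped a region of at least 1 of the 4 myeloma lists with DMSO, 25.5% against 19.4%, and 8 of these 14 were promoter regions.

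Between the SCLC-P lines, 18 of the 55 POU2F3 regions of NCI-H526 overlapped a POU2F3 region of NCI-H1048, 32.7% against 23.8% of the list. Seen from NCI-H1048, 18 of 24 regions overlapped one of NCI-H526, 75.0% (53.3 to 90.2%) against 56.6%. For HA-POU2F3, 5 of the 7 NCI-H1048 regions overlapped one of NCI-H526, against 48.2%. Within NCI-H1048, 4 of 7 HA-POU2F3 regions overlapped a POU2F3 region, against 58.5%, and 4 of 24 POU2F3 regions overlapped an HA-POU2F3 region, 16.7% (4.74 to 37.4%) against 30.9%. None of the 10 POU2F3 promoter regions in NCI-H1048 overlapped an HA-POU2F3 region, and HA-POU2F3 had no promoter region in these windows. Over all protein-coding genes, 16.1% had an HA-POU2F3 region at their own promoter in that line, and 39.1% a POU2F3 region. The share of promoter regions that overlap over the whole list is not given here. With the POU2F3 antibody alone, 18 sites were called in both lines, 8 of them with a core, at 7 of the 9 genes.

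With AU-15330 the number of genes with a region was lower than with DMSO in 8 of the 10 pairs and equal in the other two. POU2F3 in NCI-H526 was left with regions at 5 of 9 genes, against 59.7% of all genes, and HA-POU2F3 at 6 of 9, against 63.9%. HA-POU2AF2 was left with 0 of 9, against 14.7%. In NCI-H1048 POU2F3 had regions at 8 of 9 genes, against 94%, HA-POU2F3 at 2 of 9, against 35.8%, and the HA protein of unnamed tag at 0 of 9, against 7.63%. The myeloma lists had regions at 5 of 9 genes for POU2AF1 in both lines, against 82% in MM1.S and 78.6% in NCI-H929, and for IRF4 at 3 of 9 in MM1.S, against 46%, and at 1 of 9 in NCI-H929, against 13.2%.

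A DMSO region was called retained when at least 1 base of it was overlapped by a region of the paired AU-15330 list. For POU2F3 in NCI-H526, 9 of 55 regions were retained, 16.4% (7.77 to 28.8%), against 16.7% of the whole list. For HA-POU2F3 in that line 13 of 42 were, 31.0% (17.6 to 47.1%), which was above the 14.6% of the list. HA-POU2AF2 kept 0 of 25 (upper bound 13.7%), against 1.26%. In NCI-H1048 POU2F3 kept 13 of 24, 54.2% (32.8 to 74.4%), against 44.6%, and HA-POU2F3 and the HA protein of unnamed tag kept 0 of 7 each (upper bound 41.0%), against 7.72% and 1.95%.

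In the myeloma lines POU2AF1 kept 9 of 24 regions in MM1.S, 37.5% (18.8 to 59.4%), against 33.7%, and 10 of 17 in NCI-H929, 58.8% (32.9 to 81.6%), against 38.4%. IRF4 kept 2 of 21 in MM1.S, 9.52% against 9.76%, and 0 of 37 in NCI-H929, against 0.888%. The share at the 9 genes thus differed from that of the list by more than its counting interval in 1 of the 10 pairs, HA-POU2F3 in NCI-H526.

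**Figure D4:**
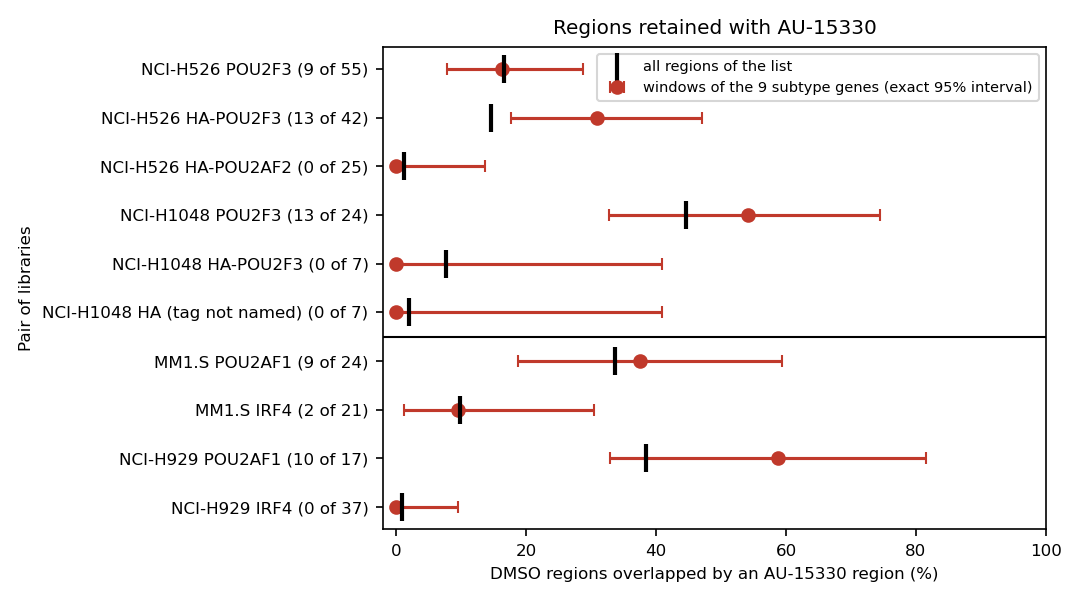
Share of DMSO regions in the 9 windows that overlap a region of the paired AU-15330 list (points, with exact binomial 95% intervals) beside the share over the whole list (bars), for the 10 pairs. The bar lies outside the interval for HA-POU2F3 in NCI-H526 alone.

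Depth differed between the libraries of a pair. The AU-15330 library of POU2F3 in NCI-H526 was estimated at 26.9 M tags against 53.6 M with DMSO, whereas that of POU2F3 in NCI-H1048 was the deeper of its pair, at 40.6 M against 30.6 M. From the recovered pileups, 77.0% of the POU2F3 regions at the 9 genes in NCI-H526 would be expected to pass the threshold of the AU-15330 list at unchanged occupancy, against the 16.4% that did, and 97.0% in NCI-H1048. This estimate makes no allowance for the selection of regions by their height with DMSO. Its threshold is the smallest −log10 p of the AU-15330 list, and so depends on that list. For HA-POU2AF2 it was 53.2%, with 46.9 M tags with DMSO against 17.3 M. By estimated tags the AU-15330 library was the deeper for HA-POU2F3 in NCI-H526 (33.6 M against 29.0 M) and in NCI-H1048 (37.0 M against 28.5 M). By the same measure it was the deeper for IRF4 in MM1.S (39.0 M against 31.0 M) and NCI-H929 (39.4 M against 33.7 M). The tag estimate divides the background pileup by the length of the shortest region. The background pileup itself differed less: in the same order it was 2.32 against 2.15, 2.08 against 2.07 and 2.28 against 2.19. For IRF4 in NCI-H929 it was lower with AU-15330, at 2.23 against 2.44. The retained shares of these pairs are given above. The part of depth in the retained shares was not tested.

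Promoter regions were retained more often in some lists, at the 9 genes and elsewhere. HA-POU2F3 in NCI-H526 kept 6 of 12 promoter and 7 of 30 other regions, against 34.4% and 10.0% over the list. POU2F3 in NCI-H1048 kept 7 of 10 and 6 of 14, against 89.8% and 33.3%, and POU2AF1 in NCI-H929 kept 8 of 8 and 2 of 9, against 74.1% and 16.3%. POU2F3 in NCI-H526 kept 4 of 15 and 5 of 40, against 22.5% and 15.7%. Of its 18 regions with a core, 2 were retained, those at INSM1 and YAP1.

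By gene, POU2F3 in NCI-H526 lost all 11 regions at ONECUT2, all 5 at NEUROD1, all 5 at FOXA2, both at ATOH1 and both at NKX2-1. It kept 4 of 8 at DLL3, 3 of 8 at INSM1, 1 of 9 at YAP1 and 1 of 5 at REST, with 16.7% retained over the list. HA-POU2F3 kept 4 of 8 at DLL3, 3 of 8 at INSM1, 2 of 6 at ONECUT2, 2 of 2 at YAP1 and 0 of 7 at REST, against 14.6% of the list. In NCI-H1048 POU2F3 kept 4 of 6 at DLL3, 3 of 4 at REST and 2 of 5 at YAP1, against 44.6%. Counts per gene are small. NKX2-1, which had no POU2F3 region in NCI-H1048 with DMSO, had 3 with AU-15330: at -0.038 and -0.628 kb in the promoter (folds 3.58 and 4.16), and at -33.6 kb (4.41). REST gained 4 such regions in the same list. These were called in the deeper of the 2 libraries.

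At retained regions the level of binding, the summit pileup divided by that library's genome background, was lower after AU-15330 in NCI-H526 at all but 2 regions. The ratio of AU-15330 to DMSO had a median of 0.487 over 9 POU2F3 regions (0.635 over the list) and of 0.462 over 13 HA-POU2F3 regions (0.642 over the list). At the DLL3 promoter the level went from 22.3 to 10.9 with POU2F3 and from 41.4 to 15.5 with HA-POU2F3. At INSM1 the -5.1 kb region went from 35.5 to 16.8 and from 38.6 to 12.5, and the shared region in RALGAPA2 from 21.6 to 10.4 and from 20.02 to 6.45. The FOXA2 promoter was lost for POU2F3 and went from 24.7 to 8.18 for HA-POU2F3. The exceptions were the NOA1 and POLR2B promoter with POU2F3, from 5.21 to 7.90, and the EID2 promoter with HA-POU2F3, from 11.2 to 12.0.

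In NCI-H1048 the POU2F3 level was higher with AU-15330 at 10 of 13 retained regions, with a median ratio of 1.44 (1.27 over the list). The largest ratios were at promoters: 3.62 at EID2, 2.91 at EID2B, 2.83 at REST and 2.49 at YAP1. Regions in the DLL3 body went from 13.7 to 31.0 at 8.2 kb and from 14.1 to 27.3 at 4 kb. The 3 regions with a lower level were those in RALGAPA2 (10.2 to 4.61), at the FOXA2 promoter (11.9 to 9.88) and in the YAP1 body at 87.3 kb (7.06 to 6.26). The YAP1 region at 46.8 kb and the ONECUT2 region at -30.9 kb, both shared with NCI-H526, were not called with AU-15330. HA-POU2F3 in NCI-H1048 retained none of its 7 regions and was called with AU-15330 at the promoters of ONECUT2 (3.25) and YAP1 (4.58).

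**Figure D5:**
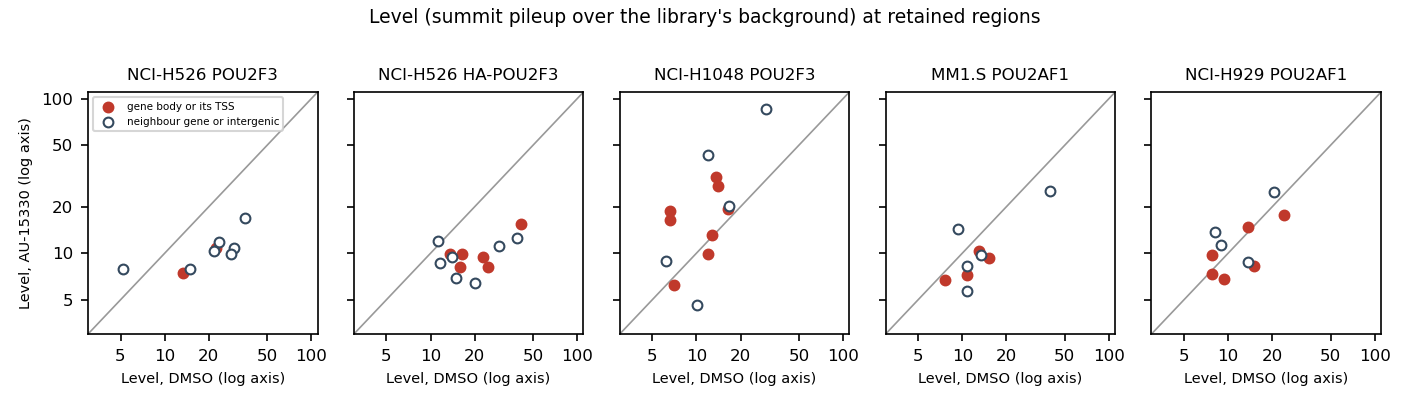
Level with DMSO against level with AU-15330 (summit pileup over the library's genome background, log axes) at regions retained in 5 pairs; filled points lie in a gene body or at a TSS of the 9 genes, and the line marks equal levels. All but 1 point in each NCI-H526 panel lie below the line, and 10 of 13 in the NCI-H1048 panel lie above it.

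In the myeloma lines the level at retained POU2AF1 regions had a median ratio of 0.732 in MM1.S, with 8 of 9 regions lower, and of 1.01 in NCI-H929, with 5 of 10 lower. At the YAP1 promoter POU2AF1 went from 15.2 to 9.27 in MM1.S and from 24.0 to 17.6 in NCI-H929. At the TIMM50 promoter beside DLL3 it went from 39.7 to 25.2 in MM1.S and from 20.5 to 25.0 in NCI-H929. IRF4 retained 2 of these regions in MM1.S, at the TIMM50 promoter (14.6 to 7.90) and the YAP1 promoter (9.12 to 10.1).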

How the data were processed

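Peak lists of 20 ChIP-seq libraries, 10 pairs of DMSO and AU-15330, were used. Reads were trimmed, mapped to GRCh38/hg38 with BWA and filtered with SAMtools and Picard, as the study's methods state; the submitters' processing notes also name Trimmomatic (0.39). The authors called peaks for each library with MACS2 (q-value of 0.05, no control named in the command) and took out blacklisted regions. The deposited fold is the summit pileup over the local background, with a constant added to both, so it is lower than their plain ratio. Beside it the authors deposited −log10 p and −log10 q. Their deposited score equals the −log10 q multiplied by 10, as a whole number. The summit offset closes each line except in the HA lists of unnamed tag, where the region's centre stood in for the summit.

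Only regions of the 22 autosomes and of X and Y entered. Genes, windows and TSSs are those of GENCODE 44 protein-coding genes, and a promoter is within 1 kb of any TSS of a protein-coding transcript. Distances are to the canonical TSS, negative upstream. Whole-number pileups were recovered from the fold and p-value (tolerance 0.002) for at least 99.6% of regions in 18 lists, which gave levels, local backgrounds and depth (genome of 2.7 Gb). Tested on simulated data, the recovery and overlap steps gave back what was put in. Motifs were searched as TTTGCAT, ATTTGCAT and GGGCGGG on both strands, and ATTTGCAT contains TTTGCAT.

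All 9 genes are described. Regions reported singly are the strongest of each gene per SCLC-P protein and line, those at promoters, and those in a gene body bound by POU2F3 in both lines. Other regions named were chosen after their values were seen. The strongest regions of 1 gene in 2 lists are not reported here. Members and gene lists were chosen with earlier results of these data known. With 1 library per condition, no test between conditions was made. Python 3.11.15, pandas 2.3.3, NumPy 2.4.6, SciPy 1.17.1 and matplotlib 3.10.9 were used. Alternatives were a narrower window, −log10 q of at least 5, 50% overlap, equal numbers of strongest regions, narrower motif windows, the full octamer, and, added after the data were seen, leaving out promoters of neighbouring genes.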

Additional observations from a re-analysis of the deposited data

Results flagged for a closer look

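The POU2F3 antibody gave differences of opposite sign in the 2 SCLC-P lines. The number of regions in the 9 windows differed between AU-15330 and DMSO by -42 in NCI-H526 and by 1 in NCI-H1048, and the median level ratio at retained regions was 0.487 in the first and 1.44 in the second. The whole lists went the same ways, from 89902 to 17836 regions with a ratio of 0.635 in NCI-H526 and from 38036 to 51408 with 1.27 in NCI-H1048, and so did depth, from 53.6 to 26.9 M tags and from 30.6 to 40.6 M. In the myeloma lines the corresponding ratio for POU2AF1 was 0.732 in MM1.S and 1.01 in NCI-H929, against 0.809 and 0.979 over the lists. Each value rests on 1 library per condition, and these differences between lines were not tested.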

How the results depend on the processing

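Depth limits the calls, most in the list of 17.3 M tags, and a region that was not called is not shown to be unbound. No paired analysis was possible because each condition is 1 library and no result comes from a test.

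Under these other settings 51 counts of genes with a region, 43 retained shares and 10 octamer shares stayed within 1.5 times the count reported or inside the share's counting interval, and 9 counts and 4 retained shares did not. These intervals are wide: the octamer share for POU2F3 in NCI-H1048 was 20.8% within 50 bases and 16.7% for the full octamer, that for HA-POU2F3 there 42.9% under both, and the retained share for IRF4 in MM1.S ran from 4.76 to 20%. With the gene body and 10 kb upstream as the window, genes with a region numbered 3 for POU2F3 with AU-15330 in NCI-H526, and in NCI-H1048 2 for HA-POU2F3 and 3 for the unnamed HA protein with DMSO, and the retained share for HA-POU2F3 in NCI-H526 was 57.1%. At a −log10 q of at least 5, genes with a region numbered 3 for POU2F3 with AU-15330 in NCI-H526, 0 for the unnamed HA protein with DMSO and 0 for HA-POU2F3 with AU-15330 in NCI-H1048, and with AU-15330 2 for POU2AF1 and 1 for IRF4 in MM1.S and 0 for IRF4 in NCI-H929. With equal numbers of strongest regions, the retained share was 46.2% for POU2F3 and 66.7% for HA-POU2F3 in NCI-H526, and 60% for POU2AF1 in MM1.S. The cause was not tested. Shares over all genes and whole lists at these other settings are not given here, so these values cannot be set against a background. Leaving out promoters of neighbouring genes, run for gene counts and retained shares only, gave 5.56% retained for IRF4 in MM1.S and 2 genes with a region for it with AU-15330.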
